A study of Mus musculus with 25 samples.

Results

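The aorta of the Apoe knockout (EKO) mouse was compared after 6 weeks on a Western-type diet (WD, TD.88137) and after 6 weeks on a normal laboratory diet (NLD, chow). The comparison rests on 3 WD and 3 NLD libraries of perfused aorta, 6 of the 25 libraries of the series, all from mice on the C57BL/6J background that lack apolipoprotein E. The methods describe male mice that began the diets at 8 weeks of age and so were 14 weeks old at collection, and the labels call the EKO libraries a re-analysis of earlier samples. Of 23284 genes in the table, 12549 averaged 1 FPKM or more over the 6 libraries and were tested (FPKM is the number of sequenced fragments scaled to transcript length and library size). Set beside it were double knockouts of Apoe and Apoa1 (DKO) fed WD (3 libraries) or NLD (4 libraries) for 6 weeks, and EKO mice fed WD or NLD for 22 weeks (3 libraries each, of which 1 WD library was incomplete and left out of every fit described here). By the same methods the mice fed for 22 weeks also began at 8 weeks of age, so they were older at collection. Every mouse carried the Apoe deletion, so no group had normal remnant clearance.

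Apolipoprotein E lets the liver take up remnant lipoproteins, and mice without it accumulate them in plasma, above all on a cholesterol-rich diet. Remnants that enter the arterial wall are taken up by macrophages, which hydrolyse the cholesteryl esters in lysosomes, export cholesterol through transporters under liver X receptor control, and become foam cells as lipid builds up. The aorta is also wrapped in perivascular fat, which around the mouse thoracic aorta resembles brown fat and burns fatty acids in mitochondria that carry uncoupling protein 1.

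The libraries were first checked against their labels. All 18 smooth muscle markers had a mean above 1 FPKM, and Acta2, smooth muscle actin, had 3927, 2257 and 4718 FPKM on WD, against 4812, 5538 and 5796 FPKM on NLD. Apoe was still listed at 11.2, 11.3 and 8.56 FPKM on WD, against 7.17, 7.62 and 3.75 FPKM on NLD (log2 fold change 0.70 ± 0.29 SE, adjusted p = 0.177 by limma), and Apoa1, which EKO mice carry, was at most 1.97 FPKM in the 6 libraries. Replicate 1 of both diets went against the stated sex. Xist, the RNA of the inactive X chromosome, was at 19.3 FPKM in WD replicate 1 and 20.8 FPKM in NLD replicate 1 and at most 1.35 FPKM in the other 4 libraries, and Y-linked Ddx3y was at 0.0158 FPKM and 0.00137 FPKM in those libraries and at 13.5 FPKM or more in the others. The groups set beside these were mixed too. Xist in DKO at 6 weeks ran from 0.0341 to 23.9 FPKM on WD (median 1.00). On NLD it ran from 0.0706 to 27.0 FPKM (median 11.3). In EKO at 22 weeks Xist ran from 0.0337 to 28.4 FPKM in the WD libraries used. On NLD it ran from 0.0196 to 19.6 FPKM (median 17.6). Sex was not in the model. In the EKO comparison at 6 weeks each diet held 1 library of high Xist, which adds to the spread but is even between the diets. Whether the diet response depends on sex was not tested. The other contrasts do not separate sex from diet. The 6 libraries correlated with r of 0.928 to 0.960 within WD, 0.911 to 0.966 within NLD and 0.878 to 0.935 between the diets (Pearson, log2 scale, across 12549 genes). The number of reads behind the FPKM values is unknown. The p-values rest on a spread between samples within groups, estimated over 24 libraries and not over these 6 alone.

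Few genes passed the test at 6 weeks. At an adjusted p under 0.05 (limma, adjusted over all tested genes), 24 genes were higher on WD (0.191% of those tested) and 24 were lower (0.191%), of which 3 higher and 12 lower ones were small RNAs or models unnamed under their deposited symbols (RefSeq lists 2310035K24Rik as Ap5s1 and Gm5506 as Eno1b). At an adjusted p under 0.1 the counts were 286 higher (2.28%) and 239 lower (1.9%), and at an unadjusted p under 0.05 they were 1512 (12%) and 1291 (10.3%). The WD libraries lay entirely above the NLD libraries for 1584 genes (12.6%) and entirely below them for 1361 (10.8%). On the 2 sides of the call threshold stood Gm13212 (adjusted p = 0.0497) and Cd5l (adjusted p = 0.0529), and on the 2 sides of the level threshold Slc34a1 (mean 1.00 FPKM) and Aurka (mean 0.999 FPKM).

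Single libraries moved these counts. The total of 48 was 22 without WD replicate 2, 117 without NLD replicate 1, 28 without NLD replicate 2 and 14 without NLD replicate 3. Without replicate 1 of both diets, the libraries with high Xist, it was 37, of which 19 were among the 48. Among named genes, 19 that rose and 10 that fell averaged 5 FPKM or more in the diet where they were higher, and 6 of these 29 were the Scd and ribosomal protein genes described further on. Each of the other 23 kept an unadjusted p under 0.05 when any 1 of the 6 libraries was left out. They were chosen for a low p in these same libraries, so a low unadjusted p in refits adds no independent support. Past the adjusted threshold, however, were 9 of the 23 without WD replicate 1, 3 without WD replicate 2, 10 without WD replicate 3, 19 without NLD replicate 1, 8 without NLD replicate 2 and 0 without NLD replicate 3 (lowest adjusted p = 0.065). Without both replicates 1 it was 5 of the 23. With only the 6 libraries in the fit, 1 of the 23 passed the adjusted threshold and all 23 had an unadjusted p under 0.05. With all 25 libraries, the incomplete one included, 0 passed by limma (lowest adjusted p = 0.0929) and 10 had an unadjusted p under 0.05.

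**Figure D1:**
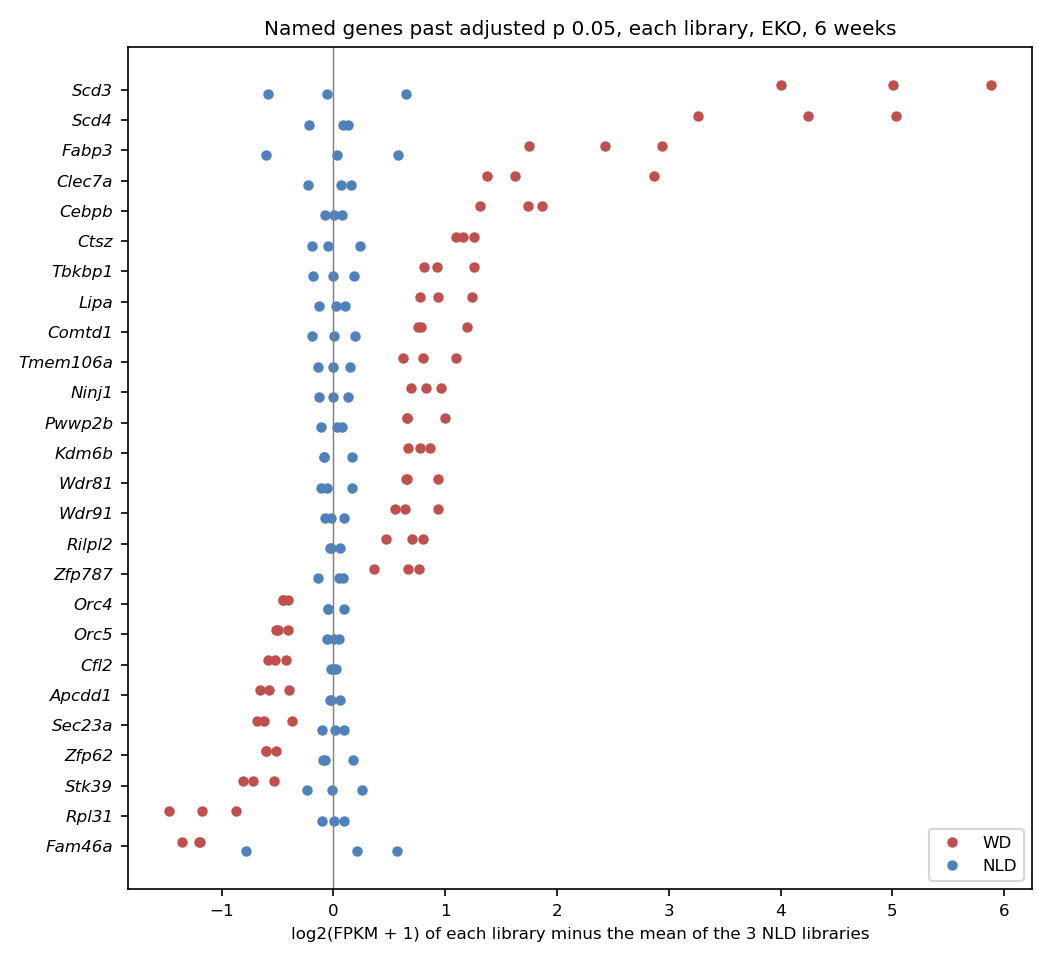
Named genes past the threshold that averaged 5 FPKM or more in the diet where they were higher, without Scd1, Rpl35 and Rpl31-ps12. The x axis is log2(FPKM + 1) of each library minus the mean of the 3 NLD libraries (WD red, NLD blue), and in every gene drawn the WD points lie to 1 side of the NLD points.

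Genes of lysosomal breakdown were among the moderate changes. Lipa, which encodes lysosomal acid lipase, the hydrolase of lipoprotein cholesteryl esters and triglycerides, had 41.9, 52.3 and 37.5 FPKM on WD, against 21.9, 23.2 and 19.6 FPKM on NLD. Every WD library lay above every NLD library, and the log2 fold change on the log2(FPKM + 1) scale was 0.98 ± 0.18 (SE, n = 3 each, adjusted p = 0.0214). Ctsz, a lysosomal carboxypeptidase of the cathepsin family, had 242, 271 and 253 FPKM on WD, against 98.7, 133 and 109 FPKM on NLD. Its groups did not overlap either, and it rose by 1.17 ± 0.22 (adjusted p = 0.0254). Lipa spans chr19:34492316-34527474 and Ctsz chr2:174427494-174439039 (RefSeq, GRCm38.p6).

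Clec7a, the β-glucan receptor dectin-1 of myeloid cells, had 20.1, 6.49 and 7.93 FPKM on WD, against 2.04, 2.22 and 1.48 FPKM on NLD. All WD libraries were higher, with replicate 1 far above the other WD libraries (1.95 ± 0.41, adjusted p = 0.0391). Leaving out WD replicate 1 gave a log2 fold change of 1.5 for Clec7a with an adjusted p of 0.0854. Cebpb, a transcription factor of myeloid and fat cells, had 32.5, 48.3 and 44.2 FPKM on WD, against 12.6, 13.2 and 11.8 FPKM on NLD. The NLD libraries were nearly level and WD replicate 1 was the lowest of its group (1.64 ± 0.35, adjusted p = 0.0425).

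The promoters of Lipa and Clec7a are shown as the 2 of the called lysosomal and myeloid genes above whose promoter held GAGGAA, the core of the site of the macrophage factor PU.1. Those of Ctsz and Cebpb held 0 matches to it. Each holds 250 bases before and 50 bases after an annotated start (RefSeq, GRCm38.p6, minus strand, 5′ to 3′), with matches to GAGGAA or TATAAA on either strand in capitals. The Lipa promoter is at chr19:34527425-34527724, and the Clec7a promoter, from the first of its overlapping annotated starts, at chr6:129472730-129473029.
Lipa: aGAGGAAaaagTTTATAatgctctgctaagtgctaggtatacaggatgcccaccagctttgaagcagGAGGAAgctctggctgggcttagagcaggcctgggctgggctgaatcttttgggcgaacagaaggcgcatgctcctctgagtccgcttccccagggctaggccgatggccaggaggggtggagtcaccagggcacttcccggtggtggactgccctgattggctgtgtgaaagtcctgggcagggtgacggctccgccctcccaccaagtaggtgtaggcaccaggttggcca
Clec7a: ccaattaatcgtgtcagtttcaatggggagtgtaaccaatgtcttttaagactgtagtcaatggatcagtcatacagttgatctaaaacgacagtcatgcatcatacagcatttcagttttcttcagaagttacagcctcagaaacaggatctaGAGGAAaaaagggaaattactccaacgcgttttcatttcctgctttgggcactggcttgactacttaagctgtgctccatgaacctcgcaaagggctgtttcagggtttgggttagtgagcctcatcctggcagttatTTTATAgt
Lipa held 2 matches to GAGGAA and Clec7a 1, each held 1 match to TATAAA, and neither held CACGTG, the E-box core of the sites of the lysosomal regulator TFEB. Of the 22 promoters of called higher genes (19 genes), 40.9% held GAGGAA, 18.2% CACGTG and 22.7% TATAAA. Of the 13 promoters of called lower genes (9 genes), 69.2% held GAGGAA, 15.4% CACGTG and 15.4% TATAAA. Among all 32851 promoters of this length the shares were 28.3%, 7.15% and 13.6% in the same order. The matches were of letters on both strands, and promoters of 1 gene can overlap.

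Macrophage and foam cell genes were mostly higher on WD, few of them past the threshold. Of 26 foam cell genes tested, 1 rose (Ctsz) and 0 fell, 12 were higher at an adjusted p under 0.1, and the median log2 fold change was 0.79, against 0.00 over all tested genes. Of 27 macrophage markers, 0 passed by limma at an adjusted p under 0.05, 4 did under 0.1, 17 were higher at an unadjusted p under 0.05, and the median was 0.84. In 20 of the 27 the WD libraries lay entirely above the NLD libraries, against 12.6% of all tested genes. Of all tested genes, 2.28% were higher at an adjusted p under 0.1 and 12% at an unadjusted p under 0.05. Their summed level was 1053 to 1730 FPKM on WD, against 497 to 734 FPKM on NLD, with WD replicate 1 the highest WD library for 25 of the 27 genes. In a whole vessel, more macrophages and more RNA per macrophage cannot be told apart.

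Cd5l, a protein secreted by tissue macrophages and a liver X receptor target, had 84.9, 26.9 and 62.6 FPKM on WD, against 5.13, 4.56 and 5.06 FPKM on NLD. The NLD libraries were nearly level and the WD libraries spread widely (3.17 ± 0.69, adjusted p = 0.0529). Gpnmb, a glycoprotein of lipid-loaded macrophages, had 180.3, 53.5 and 73.7 FPKM on WD, against 12.6, 19.7 and 14.4 FPKM on NLD (2.47 ± 0.60, adjusted p = 0.0641). Abcg1, which exports cholesterol to high-density lipoprotein, had 14.6, 9.06 and 8.28 FPKM on WD, against 4.11, 3.44 and 2.8 FPKM on NLD (1.36 ± 0.30, adjusted p = 0.0529). Mpeg1, the macrophage perforin, had 42.7, 23.2 and 20.5 FPKM on WD, against 5.84, 8.28 and 6.98 FPKM on NLD (1.83 ± 0.41, adjusted p = 0.0546). In these 4 genes the diets did not overlap and WD replicate 1 was the highest library.

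Cd68, a lysosomal glycoprotein used as a macrophage stain, had 62.3, 35.3 and 30.2 FPKM on WD, against 10.7, 15.5 and 13 FPKM on NLD (1.58 ± 0.40, adjusted p = 0.0677). Lgals3, galectin-3, had 111, 43.8 and 50.4 FPKM on WD, against 17.3, 20.3 and 12.9 FPKM on NLD (1.86 ± 0.47, adjusted p = 0.0657). Ctss, the elastin-cleaving cathepsin S, had 160.4, 69.1 and 75.7 FPKM on WD, against 26.8, 27.5 and 25.1 FPKM on NLD (1.80 ± 0.51, adjusted p = 0.0842). These 3 genes again separated the diets, with WD replicate 1 highest. Ctsl, cathepsin L, overlapped at 279, 147 and 159 FPKM on WD, against 137, 182 and 181 FPKM on NLD (0.18 ± 0.31, adjusted p = 0.761), and its log2 fold change was -0.11 without WD replicate 1. The 16 markers of resident vascular macrophages had a median of 0.09, with 0 at an adjusted p under 0.1 by limma. At an unadjusted p under 0.05, 1 was higher, against 12% of all tested genes.

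**Figure D2:**
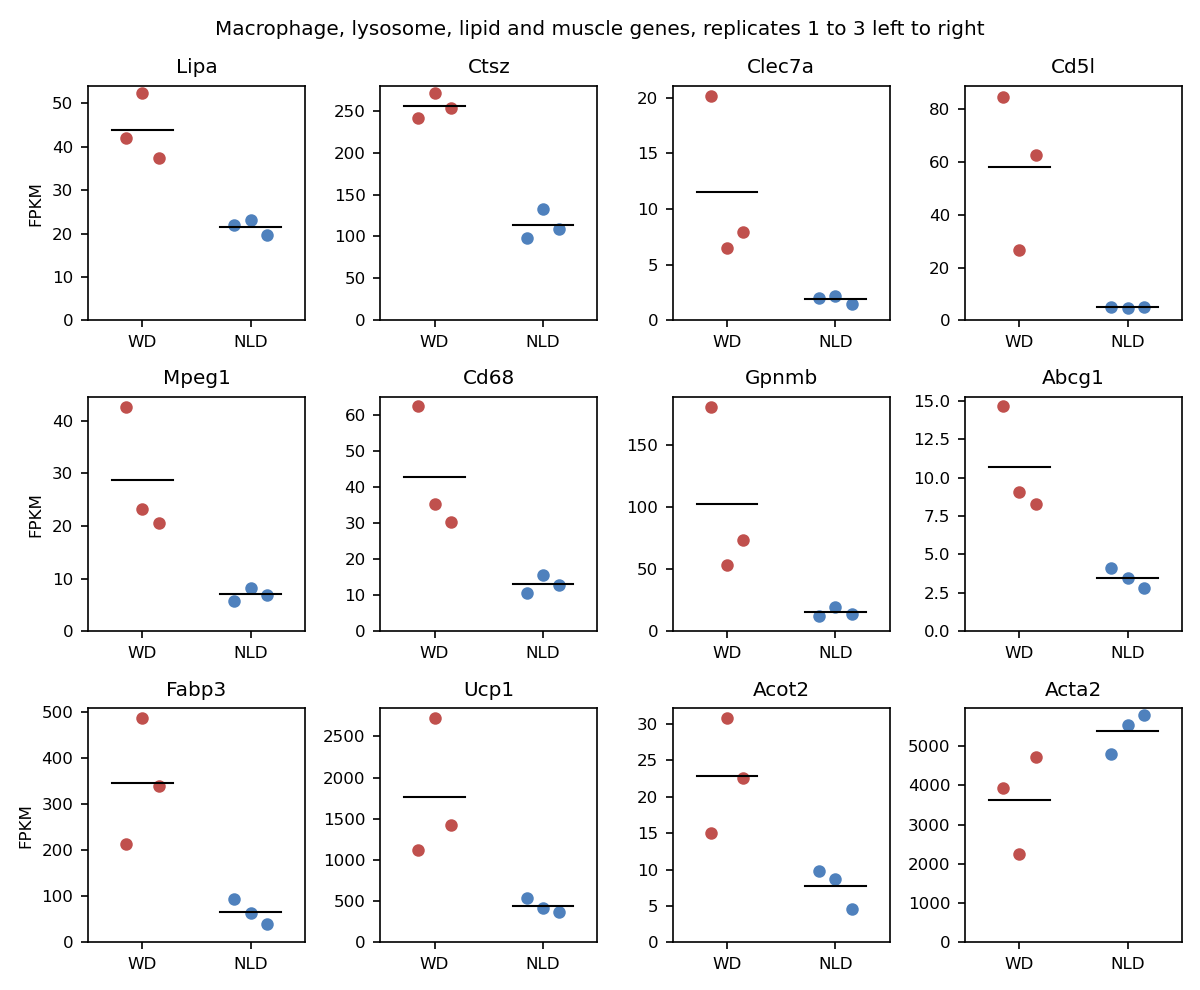
FPKM of 12 genes in the WD libraries (red, left) and NLD libraries (blue, right), replicates 1 to 3 from left to right, with the group mean as a line. WD replicate 1 is the highest WD library for Clec7a, Cd5l, Mpeg1, Cd68, Gpnmb and Abcg1, and WD replicate 2 is the highest for Lipa, Ctsz, Fabp3, Ucp1 and Acot2 and the lowest for Acta2.

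The wider lysosomal lists had lower medians. Of 58 hydrolases and membrane proteins, 1 rose (Lipa) and 0 fell, with a median log2 fold change of 0.18. At an adjusted p under 0.1, 6 were higher and 2 lower, against 2.28% and 1.9% of all tested genes. Under 0.05 the share of all tested genes was 0.191% in each direction. Psap, the precursor of the saposins that aid sphingolipid breakdown, had 1019, 907 and 815 FPKM on WD, against 502, 619 and 501 FPKM on NLD (0.76 ± 0.19, adjusted p = 0.0641). Of 14 cathepsins and legumain, 1 rose (Ctsz) and 4 were higher at an adjusted p under 0.1 (against 2.28% of all tested genes). Ctsd, the aspartic protease of lysosomes, had 766, 782 and 678 FPKM on WD, against 456, 544 and 401 FPKM on NLD (0.68 ± 0.18, adjusted p = 0.0742). Psap and Ctsd did not overlap between the diets. Tfeb, a regulator of lysosomal genes, had 18.1, 12.5 and 15.5 FPKM on WD, against 11.5, 9.41 and 9.15 FPKM on NLD (0.56 ± 0.19, adjusted p = 0.117), and its relatives Tfe3 (0.17 ± 0.10) and Mitf (-0.08 ± 0.13) overlapped.

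Genes of sterol efflux and liver X receptor response had a median of 0.47 over 18 genes, with 0 past the threshold by limma, 3 at an adjusted p under 0.1 and 8 higher at an unadjusted p under 0.05. Nr1h3, liver X receptor α, had 26.2, 43.8 and 27.4 FPKM on WD, against 15.9, 20.04 and 13 FPKM on NLD (0.93 ± 0.27, adjusted p = 0.0842). Pltp, the phospholipid transfer protein, had 97.1, 85.1 and 87.7 FPKM on WD, against 38.5, 61 and 47.9 FPKM on NLD (0.88 ± 0.26, adjusted p = 0.0975). Both separated the diets, while Abca1, the exporter to lipid-poor apolipoprotein, overlapped at 23.5, 24.5 and 12.1 FPKM on WD, against 11.2, 12.8 and 8.85 FPKM on NLD (0.77 ± 0.24, adjusted p = 0.104). Of 25 cholesterol synthesis genes, 0 passed by limma, 1 was higher and 4 lower at an unadjusted p under 0.05, and the median was -0.18. Over all tested genes the shares at that p were 12% higher and 10.3% lower, and 2.28% were higher at an adjusted p under 0.1.

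Several called genes were in none of the 56 lists. Wdr81 and Wdr91, partners in endosome maturation, rose by 0.74 ± 0.14 (adjusted p = 0.0214) and 0.71 ± 0.15 (adjusted p = 0.0371). Wdr81 had 6.55, 8.17 and 6.5 FPKM on WD, against 3.44, 4.39 and 3.61 FPKM on NLD. Tbkbp1, a binding partner of the kinase TBK1, had 11.8, 15.1 and 10.9 FPKM on WD, against 4.95, 6.69 and 5.74 FPKM on NLD (1.00 ± 0.19, adjusted p = 0.0254). Ninj1, which ruptures the plasma membrane of dying cells, had 71.6, 59.4 and 65.4 FPKM on WD, against 39.97, 36.3 and 33.2 FPKM on NLD (0.83 ± 0.16, adjusted p = 0.0304). In all 4 the diets did not overlap. Rilpl2, a Rab effector, rose by 0.66 ± 0.14 (adjusted p = 0.0371).

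Kdm6b, which demethylates lysine 27 of histone H3, had 12.1, 14 and 13.2 FPKM on WD, against 6.81, 8.31 and 6.79 FPKM on NLD, without overlap (0.77 ± 0.13, adjusted p = 0.00747). Pwwp2b, a chromatin protein, had 10.3, 7.95 and 7.94 FPKM on WD, against 4.97, 4.81 and 4.27 FPKM on NLD, also without overlap (0.77 ± 0.13, adjusted p = 0.0087). The membrane protein Tmem106a rose by 0.84 ± 0.16 (adjusted p = 0.0282), Comtd1 by 0.91 ± 0.18 (adjusted p = 0.0346) and the zinc finger protein Zfp787 by 0.60 ± 0.12 (adjusted p = 0.0355). The 15 genes of moderate change that rose, Fabp3 among them, had log2 fold changes of 0.6 to 2.37 with a median of 0.84.

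The 8 genes of moderate change that fell had log2 fold changes of -1.25 to -0.44 with a median of -0.55. Fam46a, a non-canonical poly(A) polymerase, had 7.22, 6.4 and 7.28 FPKM on WD, against 10.0041, 27 and 20.9 FPKM on NLD (-1.25 ± 0.23, adjusted p = 0.0198). The WD libraries were nearly level, and NLD replicates 2 and 3 were the highest. Orc4 and Orc5, subunits of the origin recognition complex of DNA replication, both fell. Orc4 had 4.77, 4.77 and 4.98 FPKM on WD, against 6.64, 6.66 and 7.44 FPKM on NLD (-0.44 ± 0.09, adjusted p = 0.0336). Orc5 had 4.27, 4.7 and 4.35 FPKM on WD, against 6.78, 6.26 and 6.58 FPKM on NLD (-0.47 ± 0.10, adjusted p = 0.0371). The 14 proliferation genes tested had a median of 0.12, with 0 called by limma and 0 at an unadjusted p under 0.05.

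Cfl2, the muscle cofilin that turns over actin filaments, had 26.1, 27.3 and 29.3 FPKM on WD, against 39, 40.2 and 39.8 FPKM on NLD, with little spread in either diet (-0.51 ± 0.10, adjusted p = 0.0254). The others that fell were Apcdd1, an inhibitor of Wnt signalling (-0.54 ± 0.10, adjusted p = 0.0235), Sec23a, a coat protein of vesicles leaving the endoplasmic reticulum (-0.56 ± 0.11, adjusted p = 0.0357), Stk39, a kinase of ion cotransporters (-0.69 ± 0.14, adjusted p = 0.0371), and the zinc finger protein Zfp62 (-0.57 ± 0.12, adjusted p = 0.0484).

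Thermogenic and fatty acid oxidation genes had the highest medians of the metabolic lists. Fabp3, a fatty acid binding protein of heart and brown fat, had 213, 487 and 340.3 FPKM on WD, against 93.5, 63.8 and 40.7 FPKM on NLD, and all WD libraries were above all NLD libraries (2.37 ± 0.49, adjusted p = 0.0371). Of 17 brown fat markers tested, 1 rose (Fabp3), 4 were higher at an adjusted p under 0.1 and 12 at an unadjusted p under 0.05, and the median was 1.3. The shares of all tested genes that were higher were 2.28% and 12% at these thresholds. Ucp1, the uncoupling protein of brown fat, had 1124, 2726 and 1428 FPKM on WD, against 539.8, 417 and 369 FPKM on NLD (1.90 ± 0.50, adjusted p = 0.0738). Cox8b, a cytochrome oxidase subunit, had 637, 1617 and 963 FPKM on WD, against 325, 502 and 281 FPKM on NLD (1.48 ± 0.45, adjusted p = 0.0998). Both separated the diets, with WD replicate 2 highest.

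Of 30 fatty acid oxidation genes, 0 passed by limma, 2 were higher at an adjusted p under 0.1 and 22 at an unadjusted p under 0.05, with a median of 0.96. Acot2, a mitochondrial thioesterase, had 15, 30.8 and 22.5 FPKM on WD, against 9.84, 8.7 and 4.59 FPKM on NLD (1.45 ± 0.36, adjusted p = 0.0641). Acaa1b, a peroxisomal thiolase, had 26.9, 42.2 and 28.4 FPKM on WD, against 13.8, 12.9 and 8.21 FPKM on NLD (1.41 ± 0.37, adjusted p = 0.0738). Neither overlapped. Of 69 oxidative phosphorylation genes, 0 passed by limma, 3 were higher at an adjusted p under 0.1 and 34 at an unadjusted p under 0.05, with a median of 0.64. For both lists, the shares of all tested genes at these thresholds were 2.28% and 12% higher. Uqcr11, a subunit of complex III, had 275, 507 and 419 FPKM on WD, against 231, 209 and 156 FPKM on NLD (0.98 ± 0.29, adjusted p = 0.0976). Over 26 lipid droplet and lipase genes the median was 0.56, with Fabp3 called and Plin2, a lipid droplet coat protein, overlapping at 166, 429 and 289 FPKM on WD, against 108, 176 and 76.7 FPKM on NLD (1.26 ± 0.38, adjusted p = 0.0984).

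These lists moved with 1 library. WD replicate 2 was the highest WD library for 16 of 17 brown fat, 28 of 30 fatty acid oxidation and 68 of 69 oxidative phosphorylation genes, and the lowest for 16 of 18 smooth muscle genes. The median difference of brown fat genes from the NLD mean was 0.58 in WD replicate 1, 2.08 in WD replicate 2 and 1.29 in WD replicate 3, on the log2 scale. Brown fat markers summed to 3128, 8170.4 and 4579 FPKM on WD, against 1832, 2118 and 1317 FPKM on NLD. White fat markers overlapped, summing to 8604, 19438 and 11256 FPKM on WD, against 12044, 11179.6 and 7414 FPKM on NLD, and so did Fabp4, a marker of both fat and foam cells, at 3684, 8112 and 5177 FPKM on WD, against 5082, 4705 and 2948 FPKM on NLD. All 18 listed brown fat markers were detected in at least 1 of the 6 libraries, and the part of adherent fat in these differences was not tested.

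**Figure D3:**
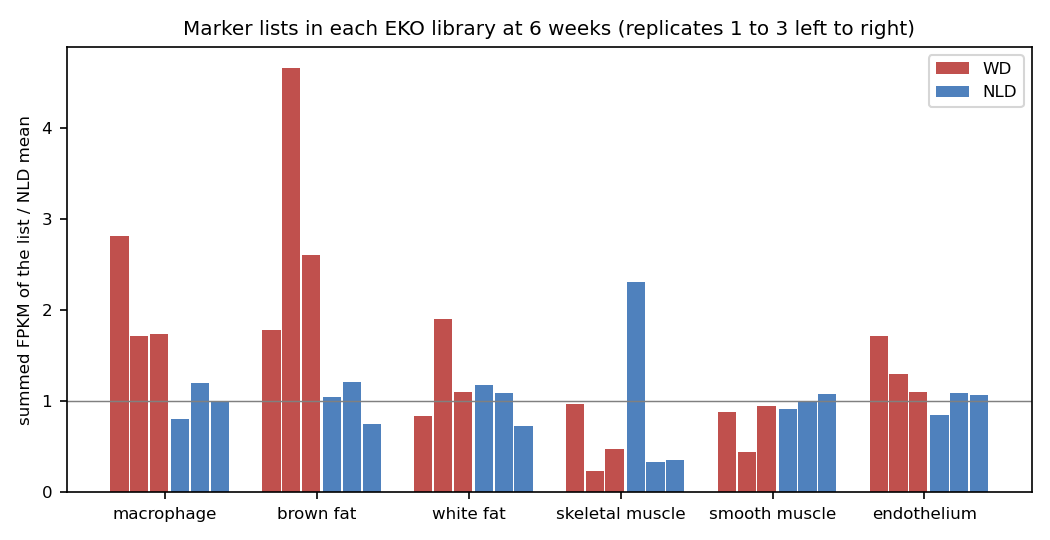
Summed FPKM of 6 marker lists in each library divided by the mean of the 3 NLD libraries (WD red, NLD blue, replicates 1 to 3 from left to right, bars from 0). The macrophage and brown fat sums are higher in all WD libraries, WD replicate 2 has the highest brown fat and the lowest smooth muscle sum, and the skeletal muscle sum is highest in NLD replicate 1.

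Stearoyl-CoA desaturases, which place a double bond in saturated fatty acids, gave much larger differences. Their 4 genes lie on chromosome 19, from the start of Scd3 at 44203288 to the end of Scd1 at 44407709 (GRCm38.p6). Scd3 had 54.2, 201 and 109.6 FPKM on WD, against 2.29, 4.38 and 1.29 FPKM on NLD (4.97 ± 0.45, adjusted p = 2.17e-06). Scd4 had 16.4, 58.7 and 33.6 FPKM on WD, against 0.93, 0.995 and 0.566 FPKM on NLD (4.18 ± 0.36, adjusted p = 8.86e-07). Scd2 had 131, 279 and 155 FPKM on WD, against 95.9, 53.8 and 32.3 FPKM on NLD (1.68 ± 0.40, adjusted p = 0.0625). None of the 3 overlapped between the diets.

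Scd1, the main desaturase of fat and liver, was listed at 0 in all 3 WD libraries, against 2506, 4253 and 1451 FPKM on NLD. In DKO mice at 6 weeks it was likewise listed at 0 in all 3 WD libraries, against 1262 to 3331 FPKM on NLD, and in EKO mice at 22 weeks it was 1860.0 to 4414 FPKM on WD, against 2287 to 6070.1 FPKM on NLD. A listed 0 can be a failed estimate, so no fold is read from these values. The 4 genes are close relatives whose reads the counting could split, which makes their values uncertain.

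Ribosomal protein genes, which every cell uses, showed similar gaps. Rpl35, a protein of the large ribosomal subunit, had 309, 199 and 275 FPKM on WD, against 1.15, 1.05 and 2.03 FPKM on NLD. The NLD libraries of EKO at 6 weeks stood apart, since Rpl35 was 209.6 to 261 FPKM on WD and 232 to 261 FPKM on NLD in DKO mice at 6 weeks. Rpl31-ps12, a copy of Rpl31, had 589, 412 and 504.4 FPKM on WD and was listed at 0 in all 3 NLD libraries. The caution on listed zeros holds for Rpl35 and Rpl31-ps12 too, and whether every group was quantified with the same gene models is not given in the sources used here. Rpl31 itself went the other way, with 60.1, 39.4 and 48.5 FPKM on WD, against 103, 112 and 118 FPKM on NLD (-1.17 ± 0.14, adjusted p = 0.000159). In DKO mice at 6 weeks Rpl31 was 46.2 to 53.2 FPKM on WD, against 101 to 130 FPKM on NLD. Rpl31-ps12 was there 385 to 431 FPKM on WD and at most 0.204 FPKM on NLD. In EKO mice at 22 weeks the gap was reversed, at 0 to 0.307 FPKM in the WD libraries used, against 105 to 128 FPKM on NLD. The counting could split reads between Rpl31 and its copy, which makes the values of Rpl31 uncertain too. The 75 ribosomal protein genes tested, Rpl35 and Rpl31 included, had a median of 0.12, with 1 called higher (Rpl35) and 1 lower (Rpl31), and with Rplp2 at 0.54 ± 0.13 (adjusted p = 0.0641) and Rpl36 at 0.56 ± 0.14 (adjusted p = 0.0641).

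In all, 8 genes had every WD library at least 10 times above the highest NLD library, with a floor of 1 FPKM, and 13 had the reverse. Small RNAs and unnamed models made up 4 of the 8 and 12 of the 13. Gm5506 had 0, 0.0394 and 0 FPKM on WD, against 285, 303 and 159 FPKM on NLD, beside Eno1, the glycolytic enolase, at 314, 769 and 589.9 FPKM on WD, against 243, 272 and 135 FPKM on NLD. The caution on split reads given for Rpl31 holds for Eno1 and Gm5506 (Eno1b) too. Snord2, a small nucleolar RNA, had 0.452, 0 and 0 FPKM on WD, against 192, 1050.2 and 185 FPKM on NLD. Mir143, the locus of a smooth muscle microRNA, had 4.39, 0 and 7.11 FPKM on WD, against 993, 1356 and 1912 FPKM on NLD. These 4 genes were chosen after their values were seen, and the small RNAs are not much longer than the 50-nt reads, where FPKM is poorly defined.

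**Figure D4:**
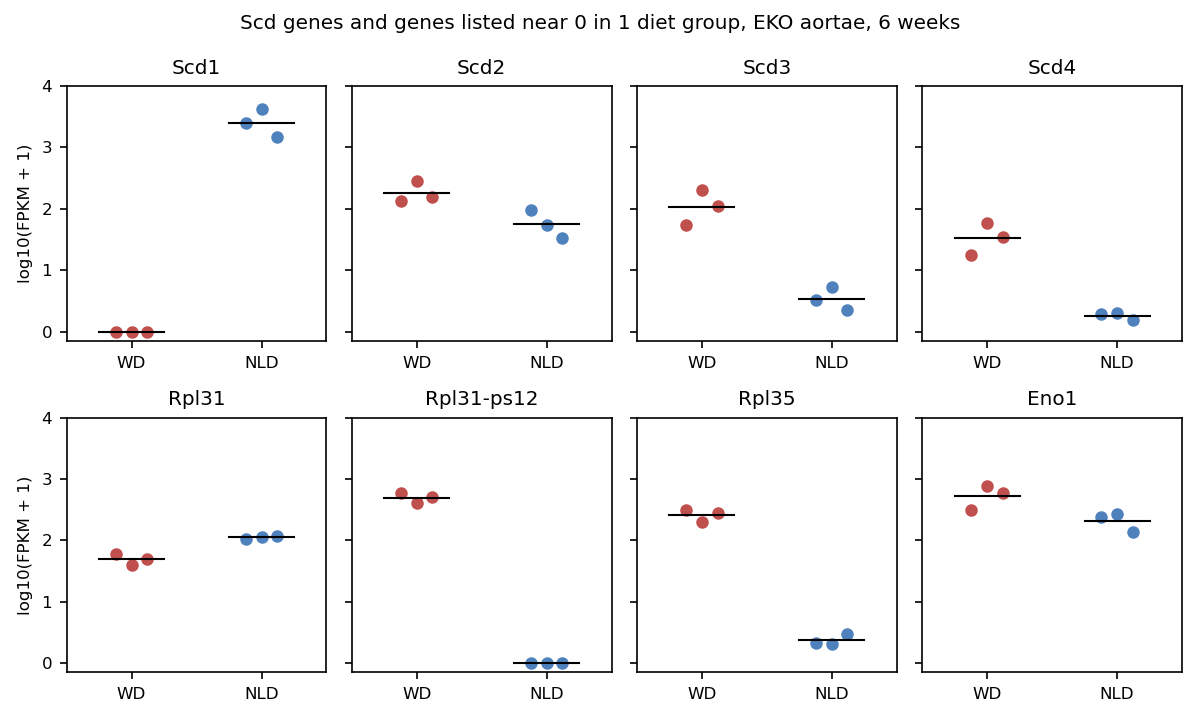
Log10(FPKM + 1) of the Scd genes, Rpl31, Rpl31-ps12, Rpl35 and Eno1 in the WD libraries (red, left) and NLD libraries (blue, right), with the group mean as a line. Scd1 is at 0 in all WD libraries, Rpl31-ps12 is at 0 and Rpl35 near 0 in all NLD libraries, and Scd3 and Scd4 are higher in all WD libraries.

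Structural cells of the wall gave no called member in their lists by limma. Over 18 smooth muscle genes the median was -0.44, with 2 lower at an unadjusted p under 0.05, and the list summed to 11972, 6067 and 12919 FPKM on WD, against 12546, 13732 and 14659 FPKM on NLD. Myocd, the coactivator of smooth muscle genes, overlapped at 3.52, 6.04 and 8.43 FPKM on WD, against 4.51, 15.9 and 24.5 FPKM on NLD (-0.99 ± 0.45, adjusted p = 0.203). Over 20 endothelial genes the median was 0.44, with 8 higher at an unadjusted p under 0.05. Over all tested genes 12% were higher and 10.3% lower at that p. Egfl7, an endothelial secreted protein, had 72.6, 59.1 and 56.4 FPKM on WD, against 45.8, 44.2 and 45 FPKM on NLD (0.46 ± 0.15, adjusted p = 0.112). The 24 fibrillar collagen and lysyl oxidase genes had a median of -0.19 and the 14 fibroblast genes one of -0.11.

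Skeletal muscle genes had a median of -1.37 over 19 genes, and their list summed to 540.3, 130.4 and 268 FPKM on WD, against 1289, 187 and 201 FPKM on NLD. NLD replicate 1 stood apart in that sum. Casq1, a calcium-binding protein of muscle, did not follow that library, with 16.2, 9.74 and 18.1 FPKM on WD, against 40.04, 47.4 and 35.2 FPKM on NLD and no overlap (-1.45 ± 0.33, adjusted p = 0.0561). Acta1, skeletal actin, did, with 24.8, 12.1 and 25.8 FPKM on WD, against 172, 31.5 and 41.8 FPKM on NLD (-1.58 ± 1.01, adjusted p = 0.354).

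Other immune lists were mixed. Of 14 Fc gamma receptor genes, 0 passed by limma and 10 were higher at an unadjusted p under 0.05 (against 12% of all tested genes), with a median of 0.60. Fcgr4, an activating receptor for IgG, had 6.19, 3.29 and 3.49 FPKM on WD, against 0.817, 1.8 and 1.31 FPKM on NLD (1.19 ± 0.33, adjusted p = 0.0789). Of 10 class II antigen presentation genes, 8 lay entirely higher on WD (against 12.6% of all tested genes), with a median of 0.77. H2-Ab1, a class II chain, had 93.2, 89.8 and 108 FPKM on WD, against 41.7, 52.8 and 53.5 FPKM on NLD (0.96 ± 0.42, adjusted p = 0.195). Il7r, the interleukin-7 receptor, had 5.61, 2.02 and 1.87 FPKM on WD, against 0.537, 0.518 and 0.487 FPKM on NLD (1.35 ± 0.32, adjusted p = 0.0626). These 3 genes separated the diets. The 28 interferon-stimulated genes had a median of 0.00, with 0 called by limma and 0 at an unadjusted p under 0.05. Of all 56 lists, 7 held a called member.

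The diet contrast in DKO mice at 6 weeks, which also lack apolipoprotein A-I, shares no library with the EKO contrast. The labels call the EKO libraries a re-analysis of earlier samples. Genotype cannot be told apart from any difference in sample origin or quantification between the EKO and DKO libraries. The DKO contrast called 183 genes higher on WD (1.46%) and 477 lower (3.8%). Of the 24 genes called higher in EKO mice, 12 were also called higher in DKO mice, and of the 24 called lower, 10 were also called lower. Among the shared genes were Rpl31-ps12, Scd3 and Scd4 (higher) and Scd1, Rpl31 and the small RNAs Snord2 and Mir3101 (lower). The cautions above on listed zeros, split reads and small RNAs apply to these. Lipa had a log2 fold change of 1.05 in DKO mice (adjusted p = 0.00435), Ctsz one of 1.16 (adjusted p = 0.00931) and Clec7a one of 2.27 (adjusted p = 0.0057). The EKO response minus the DKO response was called higher for 3 genes (0.0239%), Rpl35, Scarna8 and Mecom, and lower for 1 (0.00797%), Gm5506. Mecom, a zinc finger transcription factor chosen, like Scarna8, after its values were seen, had log2 fold changes of -0.03 ± 0.16 in EKO mice and -1.60 in DKO mice (difference 1.57, adjusted p = 0.00368). The EKO value of Mecom overlapped between the diets, at 5.18, 3.17 and 3.61 FPKM on WD, against 3.71, 4.07 and 4.32 FPKM on NLD. In DKO mice it was 0.369 to 1.21 FPKM on WD, against 4.38 to 5.09 FPKM on NLD. The WD levels there are near the pseudocount of 1, so the fitted difference depends on it.

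The EKO contrast at 22 weeks came from mice fed longer and older at collection, in groups with the mixed Xist levels given above. Age and duration of feeding change together here and cannot be told apart. The contrast at 22 weeks called 1221 genes higher on WD (9.73%) and 1182 lower (9.42%). The response at 6 weeks minus that at 22 weeks was called higher for 1614 genes (12.9%) and lower for 1216 (9.69%). Their total of 2830 was 1722 without NLD replicate 3 of 6 weeks, 434 without WD replicate 1 of 22 weeks, which left 1 WD library there, and 1879 without NLD replicate 3 of 22 weeks. Macrophage markers had a median of 0.84 at 6 weeks and 1.96 at 22 weeks, where 25 of 27 were called higher, and the difference was called for 7 of 27, each lower at 6 weeks. Itgax, the integrin CD11c, had log2 fold changes of 1.41 ± 0.43 at 6 weeks and 3.48 at 22 weeks (difference -2.07, adjusted p = 0.0291). For Ctsl they were 0.18 ± 0.31 and 2.83 (difference -2.65, adjusted p = 0.00214).

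Lipa and Ctsz were called higher at both times, and the adjusted p of the difference was 0.0913 for Lipa and 0.828 for Ctsz. The medians of the oxidative lists had opposite signs. Brown fat genes had 1.3 at 6 weeks and -1.34 at 22 weeks, with the difference called for 12 of 17. Fatty acid oxidation genes had 0.96 at 6 weeks and -1.19 at 22 weeks, with the difference called higher for 25 of 30 and lower for 1. Oxidative phosphorylation genes had 0.64 at 6 weeks and -1.14 at 22 weeks, with the difference called higher for 61 of 69. Ucp1 had log2 fold changes of 1.90 ± 0.50 at 6 weeks and -1.61 at 22 weeks (difference 3.52, adjusted p = 0.00485). Cebpb, which rose at 6 weeks, was called lower at 22 weeks (1.64 ± 0.35 and -1.99, difference 3.63, adjusted p = 0.000783). FPKM values summed to 372110 to 415555 per library at 6 weeks and to 448239 to 556933 in the EKO libraries of 22 weeks that were used.

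**Figure D5:**
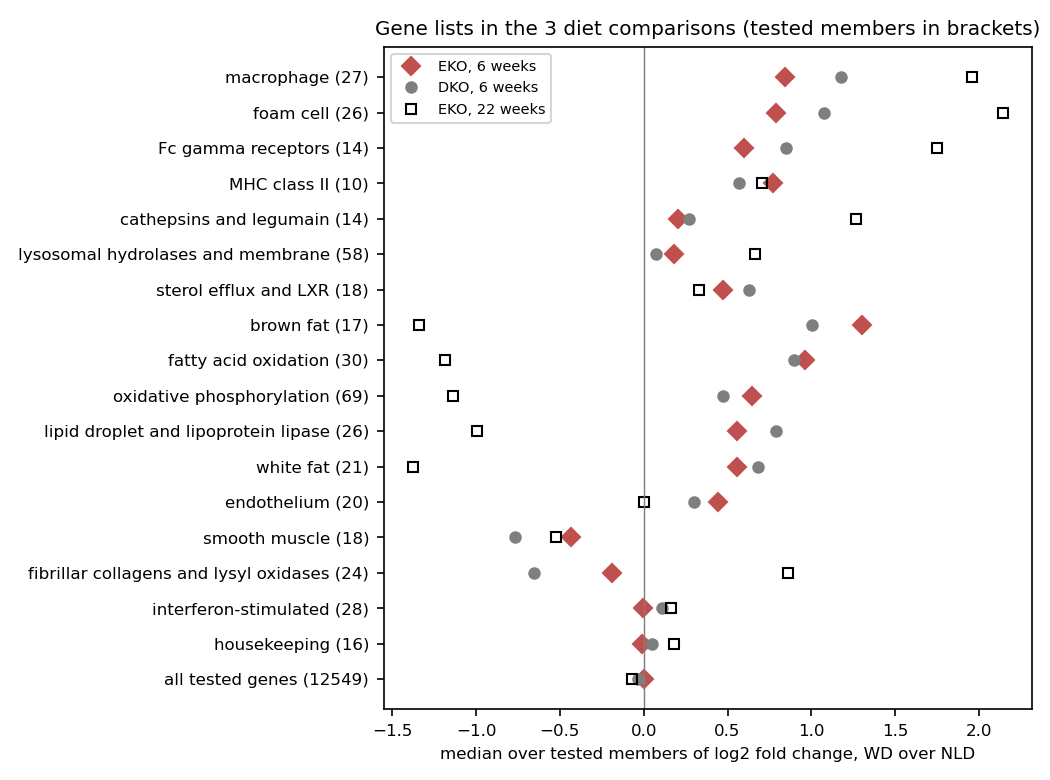
Median log2 fold change, WD over NLD, of the tested members of 17 gene lists and of all tested genes, in EKO at 6 weeks (red diamonds), DKO at 6 weeks (grey circles) and EKO at 22 weeks (open squares). The macrophage and foam cell medians are above 0 in all 3 comparisons, and those of brown fat, fatty acid oxidation and oxidative phosphorylation are above 0 at 6 weeks in both genotypes and below 0 at 22 weeks.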

How the data were processed

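RNA from perfused aortas was sequenced as 50-nt unpaired reads, and the authors deposited 1 FPKM value per gene and library, made with Cufflinks after alignment to mm10. The submitters' processing notes list TopHat 1.3.2 with Bowtie 0.12.8, Cuffdiff, and SAMtools 0.1.19. The gene models are not given in the sources used here. FPKM is scaled to transcript length and library size, so a few abundant transcripts can shift the others, and the low values were not whole multiples of 1 read, so depth is unknown. Genes that averaged 1 FPKM or more over the 6 libraries were tested on log2(FPKM + 1), which understates changes of low genes, with limma 3.58.1 in R 4.3.3 (mean-variance trend, robust), with 1 mean per group over 24 of 25 libraries and Benjamini-Hochberg adjustment over all tested genes. Left out was replicate 2 of EKO on WD for 22 weeks, with 17675 genes listed at 0.

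Genes were named by rule: per direction up to 20 called genes with the largest change, an average of 5 FPKM or more in the higher diet and separate groups, without small RNAs and unnamed models; per list up to 4 members with the smallest p and the 3 most abundant members of marker lists; and the deleted genes. The members and lists were chosen with earlier results of these data known. Coordinates came from RefSeq (GRCm38.p6) for 20723 genes matched by symbol and 2317 by synonym, with 244 unmatched, and promoters for 28 of 33 called named genes. Alternatives were other pseudocounts, filters, rescaling, sets of libraries, weights, a replicate block and each library left out.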

Additional observations from a re-analysis of the deposited data

Results flagged for a closer look

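The diet response was tested for a difference between genotypes and between feeding times by contrasts within the limma model, and 4 genes differed by genotype and 2830 by time at an adjusted p under 0.05. The log2 response in EKO minus that in DKO at 6 weeks was Rpl35 6.80, Scarna8 4.11, Mecom 1.57 and Gm5506 -7.89. All 4 were listed at or near 0 in at least 1 group, so that the fitted values depend on the pseudocount. For Mecom this was DKO on WD at 6 weeks, with 0.369 to 1.21 FPKM.

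Of the named genes, 48 differed between times. The log2 response at 6 weeks minus that at 22 weeks was, for genes listed at or near 0 in some group and so set by the pseudocount and not to be read as folds, Rpl31-ps12 15.60, Rpl35 6.82, Scarna8 4.29, Gm5506 -6.97, Scd1 -11.06 and Snord2 -8.32. For genes of fat, mitochondria and lipid metabolism the difference was Uqcr11 2.51, Ndufa2 1.53, Ucp1 3.52, Cox8b 3.18, Acot2 2.53, Fabp3 3.41 and Ndufa3 2.07. In the same classes it was Slc25a20 2.55, Acot1 2.94, Plin5 2.75, Cidea 2.52, Acaa1b 1.95, Nr1h3 1.302 and Gyk 1.78. For Eno1, the glycolytic enolase, it was 2.43. For lysosomal and immune genes it was Ctsl -2.65, Ctsb -1.20, Mitf -0.82, Ctsd -1.08, Il7r -1.63, Itgax -2.07 and Nos2 -0.80, and Tfeb had 0.89. Other genes with a positive difference were Cebpb 3.63, Kdm6b 1.27, Rplp2 1.34, Zfp787 1.16, Rpl36 1.32, Tbkbp1 1.70, Ptger1 1.51, Comtd1 1.28, Smad6 1.41 and Apcdd1 0.52, the last lower on WD at both times. Those with a negative one were Rpl31 -1.41, Sec23a -0.89, Fam46a -1.65, Zfp62 -0.89, Orc4 -0.54, Stk39 -0.77, Orc5 -0.52, Bambi -0.88 and Ggps1 -0.67. All 48 rest on a comparison with 2 WD libraries at 22 weeks.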

How the results depend on the processing

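The count of 48 called genes (24 higher, 24 lower on WD) was 31 with no filter on low values, 8 with all 25 libraries, 25 with the 6 libraries alone, 24 when a change of at least 2-fold was also asked, 525 at an adjusted p under 0.1 and 2845 with array weights, and with 1 library left out it ranged from 14 (without NLD replicate 3) to 117 (without NLD replicate 1), with 22 without WD replicate 2 and 28 without NLD replicate 2. The share of calls that were higher was 50% and became 64.8% at a pseudocount of 0.1 (35 higher, 19 lower) and 37.3% at 5 (19 higher, 32 lower). The 4 genes called between genotypes were 2 at a mean of at least 5 FPKM, 1 with all 25 libraries, 7 with only the libraries compared or only those of 6 weeks, 15 with array weights and 4 to 9 with 1 library left out (9 without NLD replicate 1 of EKO). The 2830 called between times were 78 with all 25 libraries, 1499 with only the libraries compared, 1299 at 2-fold or more and 434 (without WD replicate 1 of 22 weeks) to 3190 with 1 library left out, and median-ratio rescaling turned the split of 1614 higher and 1216 lower into 1322 and 1659. The cause of these shifts was not tested. Called named genes never changed sign in 626 values under alternatives, 206 of which missed the threshold. The diets did not overlap in any of the 48 called genes, so leaving out libraries or changing the pseudocount could not turn a sign. Of the genes not called, array weights changed the sign of Ctsl (-0.058), Nnmt (-0.078) and Mitf (0.093), and leaving out both libraries of high Xist, an alternative chosen after seeing the data, that of Ctsl (-0.24). With 1 library left out, Ctsl ranged from -0.11 (without WD replicate 1) to 0.35, Mitf from -0.21 to 0.040 (without WD replicate 1, and 0.032 without NLD replicate 3), and Mecom from -0.20 to 0.087 (without WD replicate 2, and also above 0 without WD replicate 3 and without NLD replicate 3).

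Samples with the same replicate number deviated together with r of -0.02, 0.08 and 0.17, so the numbers were not taken as pairs. With the replicate block the counts were 40 (22 higher, 18 lower), 5 between genotypes and 2305 between times, and 15 of the 23 moderate genes passed.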
